A study of Mus musculus with 2 samples.

Results

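MHC class I molecules show peptides from inside the cell to CD8+ T cells. The peptides are cut by the proteasome, pumped into the endoplasmic reticulum by the TAP transporter, fitted onto a heavy chain paired with beta-2-microglobulin, and carried to the surface. Interferon gamma raises most of these genes and exchanges the catalytic subunits of the proteasome for those of the immunoproteasome, while Nlrc5 acts on class I promoters as the class I transactivator. In liver, hepatocytes carry class I at low density at rest, and endothelial and immune cells carry more.

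The genes described are 10 members of this pathway in mouse liver, chosen by symbol: the transactivator Nlrc5, the immunoproteasome subunits Psmb8, Psmb9 and Psmb10, the peptide transport and loading genes Tap1, Tap2 and Tapbp, the light chain B2m and the heavy chains H2-K1 and H2-D1. They were read by 27 probe sets annotated to a single gene, of 34958 such probe sets on the array, which read 18194 genes. ICR mice, an outbred stock, received from 9 weeks of age for 4 weeks either a basal diet (CRF-1) with 500 ppm diosgenin, a plant steroidal sapogenin, or the basal diet alone. Each diet was represented by 1 Affymetrix array, hybridised with liver RNA pooled from 3 mice aged 13 weeks. Cages held 3 mice, so cage and diet may coincide and then cannot be told apart.

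With 1 array per diet there was no spread between replicates and no test, and pooling hides the spread between mice. A value called higher or lower below is so on the diosgenin array, set against the control array. Before log2 ratios were formed, signals below 10.7 were raised to this floor, which is percentile 40 of the pooled signals of both arrays. The brightest probe set stood for each gene, and genes entered the counts where its mean signal was at least 28.4, or percentile 60 among probe sets. All 10 members reached it, with both of their signals. Probe sets of the same gene differed in log2 ratio with a standard deviation of 0.28 over 4079 genes with several probe sets above the filter, the only repeat measurement the arrays hold. The 2% trimmed mean signal was 96.9 on both arrays, and markers of hepatocytes were bright, with albumin (Alb) at 8429 on the diosgenin array and 9517 on the control array.

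The promoters of the class I chains are shown first, because Nlrc5 was the member with the highest ratio and acts through an element in them, the SXY module. The windows were taken from RefSeq for the mouse build GRCm38.p6 and ran from 250 bases before to 50 after each gene's start. The table matched 8 of the 10 members, with 9 windows; Nlrc5 and Tap2 were without an entry. In the lines below, written 5′ to 3′ on the strand of the gene, capitals mark TGACG, the core of the X2 box, and ATTGG, the Y box, and upstream of them either the core of an interferon-stimulated response element, which is GAAA repeated after 2 bases (in B2m), or a kappaB site searched as GGGNNTTCC (in H2-K1 and H2-D1).
B2m, chr2:122147543-122147643, plus strand: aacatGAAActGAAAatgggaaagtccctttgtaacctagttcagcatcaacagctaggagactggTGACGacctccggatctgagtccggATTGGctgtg
H2-K1, chr17:34000354-34000463, minus strand: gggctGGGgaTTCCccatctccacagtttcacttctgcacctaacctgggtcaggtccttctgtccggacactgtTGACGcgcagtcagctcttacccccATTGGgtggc
H2-D1, chr17:35262918-35263027, plus strand: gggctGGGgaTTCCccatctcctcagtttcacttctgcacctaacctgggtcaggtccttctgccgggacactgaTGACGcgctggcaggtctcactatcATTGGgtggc

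In all 3 stretches TGACG and ATTGG lay 20 bases apart. This spacing was read from these promoters, so their match to it is given by the choice, and 31 of 32851 windows, 0.0944%, held the pair at that distance on either strand. The single words were common, with TGACG in 20.8% of windows and ATTGG in 37.4%. TGACG began 78 bases before the start of B2m, 101 before that of H2-D1, and 41 or 55 before that of H2-K1, which has 2 starts in the table. The kappaB letters were found in H2-K1 and H2-D1 among the members and in 5.82% of all windows, and the GAAA repeat in B2m among the members and in 3.44% of all windows. The interferon gamma-activated site TTCNNNGAA was found in Psmb8 alone among the members' windows, and in 8.3% of all windows. The H2-K1 and H2-D1 stretches were identical at 99 of 110 bases, 90%. A match describes letters in a window and does not show a site in use. The searches took exact letters only, so a missing match does not show that a site is absent. On the other strand, tttcacttc in the H2-K1 and H2-D1 stretches reads as the GAAA repeat with a base fewer. Likewise gggaaagtccc in the B2m stretch reads as the kappaB letters with a base more. Neither form was searched for or marked.

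A further stretch is shown because it carries 2 members at once. Psmb9 and Tap1 lie head to head with 225 bases between their starts, so that 1 short region serves both. It is written on the plus strand, which is that of Tap1, and capitals mark CCAAT, the complement of the Y box word, and TGACG.
Psmb9-Tap1, chr17:34187331-34187555, plus strand: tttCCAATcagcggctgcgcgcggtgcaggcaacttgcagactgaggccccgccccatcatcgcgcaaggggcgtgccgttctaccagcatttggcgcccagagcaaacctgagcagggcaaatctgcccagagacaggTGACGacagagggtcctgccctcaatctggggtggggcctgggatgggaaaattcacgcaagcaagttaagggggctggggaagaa

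On the diosgenin array, Nlrc5 was 2.10-fold higher and Psmb10 1.46-fold higher, while the other 8 members lay between a log2 ratio of −0.14 and one of 0.34. Among the 10 genes there were 7 higher and 3 lower, where of the 9732 genes past the filter 49% were on the higher and 51% on the lower side. The members' median log2 ratio was 0.07 and that of all genes above the filter −0.01. Nlrc5 was the 1 member past 1.5-fold on the higher side, where 2.84% of genes were, and also past 2-fold, where 0.555% were. On the lower side 0 members were past 1.5-fold, where 3.61% of genes were. In size, 7 of the 10 ratios were under the standard deviation of 0.28 between probe sets of the same gene, and Nlrc5, Psmb10 and Tapbp were beyond it. By probe set, 19 of the 27 passed the filter, 15 of them higher and 4 lower, where 49.4% of all such probe sets were higher and 50.6% lower, and their median was 0.12.

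**Figure D1:**
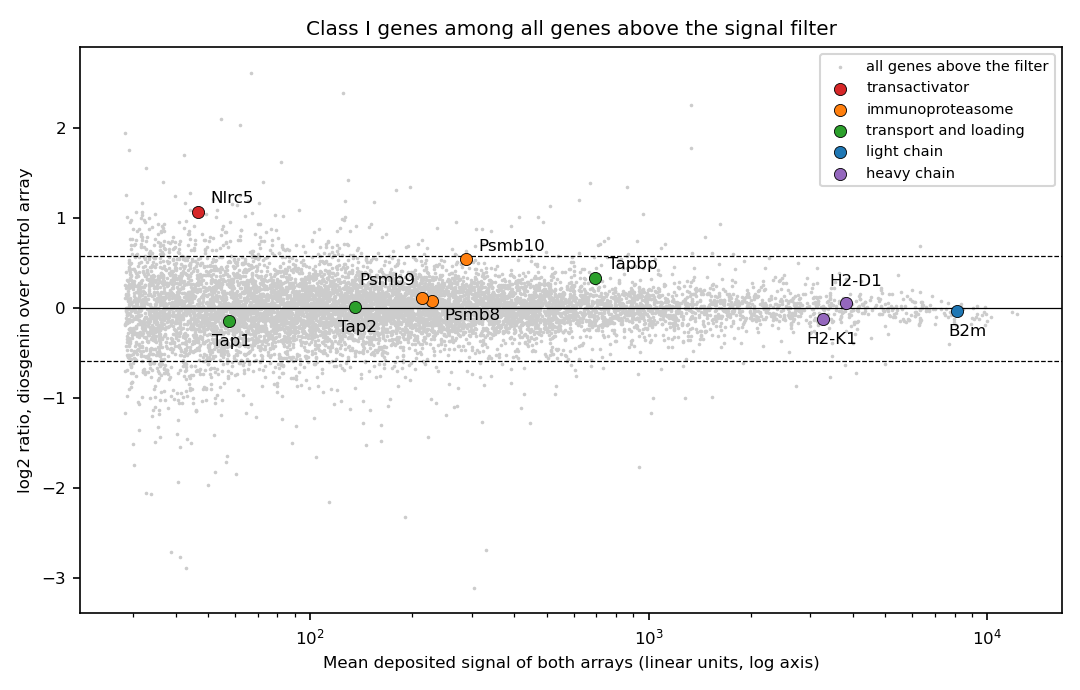
Each point is a gene above the signal filter, with the mean signal of both arrays on a log axis and the log2 ratio of diosgenin over control signal; coloured points are the 10 members by role and dashed lines mark 1.5-fold. Nlrc5, at 1.07, lies above the upper dashed line, Psmb10, at 0.54, just under it, and the heavy chains and B2m lie close to 0 at the bright end.

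Nlrc5, the transactivator, had a signal of 63.3 on the diosgenin array and 30.1 on the control array. It was read by a single probe set, so no other probe set bears on it. Both signals were dim, and the gene was among the 2433 dimmest above the filter, whose mean signals lay between 28.4 and 68.0 and whose ratios spread wider than those of brighter genes. Of those genes 1.32% were past 2-fold on the higher side and 2.06% on the lower side. Their central 95% ran from −0.95 to 0.83, and Nlrc5, at a log2 ratio of 1.07, was outside it. In a bulk liver pool, more cells of a type and more RNA per cell cannot be told apart, here or for any gene below.

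The 3 immunoproteasome subunits were all on the higher side, and only Psmb10 by more than the spread between probe sets. Psmb10, which takes the place of Psmb7 in the immunoproteasome, had signals of 342 on the diosgenin array and 235 on the control array, a log2 ratio of 0.54. Among the 2433 genes with mean signals of 151 to 377, to which it belongs, the central 95% ran from −0.52 to 0.47, and Psmb10 was outside it. Psmb9, which takes the place of Psmb6, had signals of 222 and 205 on the diosgenin and control arrays, 1.09-fold higher. Psmb8, which takes the place of Psmb5, had 234.5 on the diosgenin array and 222 on the control array, 1.06-fold higher. The differences for Psmb9 and Psmb8 are small beside the spread between probe sets. A second, dim Psmb8 probe set, under the filter, went the other way with 12.5 on the diosgenin array and 19.8 on the control array.

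The standard subunits that these 3 replace were all slightly lower. Psmb5 had signals of 925.5 on the diosgenin array and 955 on the control array, Psmb6 had 989.6 and 1085, and Psmb7 had 2506 and 2679 in the same order. Their median log2 ratio was −0.10, against 0.12 for the immunoproteasome subunits, a difference of 0.21. By pair the difference of log2 ratios was 0.13 for Psmb8 minus Psmb5, 0.25 for Psmb9 minus Psmb6 and 0.64 for Psmb10 minus Psmb7, so the last pair alone was beyond the spread between probe sets.

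The rest of the proteasome was near level or slightly lower. Of 31 standard subunits of the core and the regulatory particle, the 3 above included, 10 lay above 0 and 21 below it in log2 ratio, at a median of −0.06 and from −0.31 to 0.16, and 0 were 1.5-fold apart by their brightest set. The remaining core subunits were at a median of 0.0026, with 6 of 11 higher, and Psmb3, at 1.13-fold lower, Psma6, at 1.12-fold higher, and Psmb1, at 1.11-fold lower, were the farthest from 0. The 3 Psma6 sets above the filter ran from a log2 ratio of 0.03 to one of 0.87. Of the 17 regulatory particle subunits 13 were lower, with a median of −0.10, led by the ATPases Psmc4 at 1.24-fold and Psmc5 at 1.18-fold lower and the deubiquitinase Psmd14 at 1.16-fold lower. Activators and assembly factors had 3 of 8 higher. Psme1, a subunit of the interferon-induced proteasome activator, was 1.10-fold higher at 1035 on the diosgenin array and 942 on the control array. Its partner Psme2 was read only by a probe set shared with Psme2b, at 581 on the diosgenin array and 474 on the control array. The assembly chaperones Psmg2, Psmg3 and Psmg1 were 1.14-fold, 1.12-fold and 1.10-fold lower.

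Peptide transport and loading went both ways. Tapbp, which encodes tapasin, the protein that holds the heavy chain next to the transporter, had signals of 775 on the diosgenin array and 613 on the control array, 1.26-fold higher. Its second probe set had 108 and 98.5 on the diosgenin and control arrays, a log2 ratio of 0.14, so both sets were on the higher side. Tap2, one subunit of the transporter, was level at 136 on the diosgenin array and 135 on the control array. Tap1, the other subunit, had 54.6 on the diosgenin array and 60.2 on the control array, 1.10-fold lower and within the spread between probe sets. The 3 other Tap1 probe sets were under the floor on both arrays and gave no ratio. Psmb9 and Tap1, which share the region printed above, had log2 ratios of 0.12 and −0.14, both within that spread.

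The folding partners of the loading complex were lower or near level. Pdia3, the oxidoreductase bound to tapasin, was 1.19-fold lower, with 2801 on the diosgenin array and 3344 on the control array. Calr, the chaperone calreticulin, was 1.15-fold lower with 4648 on the diosgenin array and 5343 on the control array, and Tapbpl, a relative of tapasin that edits peptides, 1.19-fold lower with 124 and 147. All 3 Calr probe sets lay between −0.22 and −0.17. The chaperone calnexin, Canx, had 3158 on the diosgenin array and 3089 on the control array. Erap1, the peptidase that trims peptides in the endoplasmic reticulum, had 193 on the diosgenin array and 181 on the control array, and its 2 probe sets disagreed in sign, at 0.09 and −0.28. Among these 5 genes the middle log2 ratio was −0.20, and 2 lay above 0 and 3 below it. By their brightest sets, all 5 were within the spread between probe sets of the same gene.

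**Figure D2:**
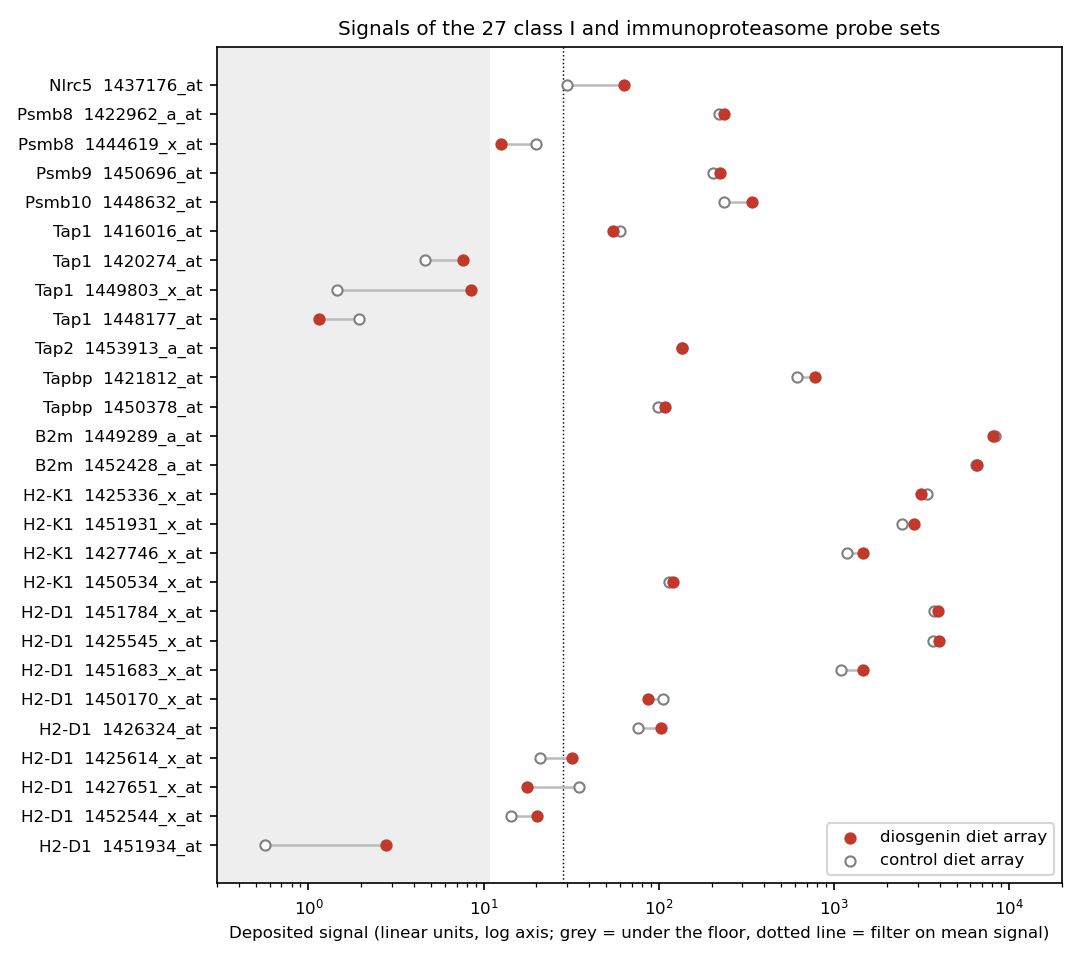
Signals of the 27 member probe sets on the diosgenin array (filled) and the control array (open), on a log axis; the grey area lies under the floor of 10.7 and the dotted line is the filter of 28.4 on mean signal. Nlrc5 and Psmb10 stand apart from their control signals, B2m and Tap2 overlap theirs, and the H2-D1 probe sets point both ways.

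B2m, the light chain shared by all class I molecules, was level. Its brighter probe set had 8041 on the diosgenin array and 8242 on the control array, and the other 6513 and 6457 in the same order. The log2 ratios were −0.04 and 0.01.

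H2-K1 and H2-D1, the classical heavy chains, gave ratios that depended on the probe set. Of their 13 probe sets 11 end in _x_at, an ending for sets that can bind several transcripts, and these genes are highly polymorphic between mice, so the values are uncertain for either gene. The brightest H2-K1 set had 3129 on the diosgenin array and 3402 on the control array, a log2 ratio of −0.12. The 3 other H2-K1 sets were higher on the diosgenin array, with 2869 against 2452 on the control array, 1467 against 1193 and 121 against 114, so that 3 of 4 were higher and their median was 0.16.

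H2-D1 had 9 probe sets, of which 5 passed the filter and 4 of these were higher, with a median of 0.12. The brightest had 3899 on the diosgenin array and 3737 on the control array, a log2 ratio of 0.06. The next had 3954 on the diosgenin array and 3646.5 on the control array, and the third 1472 and 1092 in that order. The 1 set above the filter with no cross-binding ending had 103 on the diosgenin array and 76.4 on the control array, 1.35-fold higher, whereas another had 86.5 and 105, a log2 ratio of −0.29. Of the 4 dim H2-D1 sets under the filter, 2 were higher, 1 lower and 1 under the floor on both arrays, with ratios from −0.98 to 0.61. The brightest sets of both heavy chains thus lay on opposite sides of 0, both within the spread between probe sets.

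Probe sets whose annotation lists several class I genes were left out of the gene values, and 8 of 12 passed the filter. On the diosgenin array 7 of these 8 were higher and 1 lower, where 46.1% of the probe sets with several symbols above the filter were higher. One, for H2-Q5 and H2-K1, was past 1.5-fold on the higher side, where 2.98% of such sets were. A set for H2-T23 and the pseudogene H2-T-ps had 1102 on the diosgenin array and 865 on the control array, and a set for H2-T9, H2-T22 and H2-T10 had 562 and 462. A set for H2-Q9 and H2-Q7, the Qa-2 antigens, had 215 on the diosgenin array and 180.0 on the control array. The lower one, shared by H2-K1 and H2-D1, had 1563 on the diosgenin array and 1758 on the control array. The median log2 ratio of the 8 sets was 0.27. Of the 4 sets under the filter 3 were lower and 1 was under the floor on both arrays. They include a second set for H2-T23 and H2-T-ps, at 8.90 on the diosgenin array, under the floor, and 15.2 on the control array. A second set for H2-T9, H2-T22 and H2-T10 had 17.1 on the diosgenin array and 22.1 on the control array, so the brighter and dimmer sets of both groups of genes went opposite ways.

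Heavy chains and class I-like genes with a probe set of their own were close to level. Of 8 above the filter there were 3 higher and 5 lower, and their median was −0.04. Mr1, which presents vitamin metabolites to MAIT cells, was the highest at 60.9 on the diosgenin array and 38.1 on the control array, 1.60-fold higher, and its second probe set gave a log2 ratio of 0.20. H2-M3, which presents formylated peptides, was 1.14-fold lower, and the hepcidin regulator Hfe 1.13-fold lower, both by single sets above the filter.

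The protein complex that brings Nlrc5 to class I promoters was near level at its median. The SXY complex had 4 higher and 3 lower of 7 genes above the filter, and a median of 0.05. Rfx5 had 76.0 on the diosgenin array and 76.98 on the control array, Rfxap 86.0 and 88.2, and Rfxank 76.2 and 58.6. The 3 Rfxank sets ran from a log2 ratio of −0.01 to one of 0.39 with a median of 0.38, so the lowest alone was level. The 2 Rfxap sets differed in sign, at −0.04 and 0.08. The Y box factors Nfyb and Nfyc had log2 ratios of 0.26 and −0.23. Ciita, the class II counterpart of Nlrc5, was under the filter, with 19.2 on the diosgenin array and 10.0 on the control array, the second of which is under the floor.

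Interferon signalling genes and interferon targets had larger medians than the class I members. Signalling genes and factors were at a median of 0.18, with 8 higher and 5 lower of 13. Irf9, a DNA-binding factor of the interferon response, was 1.66-fold higher with 141 on the diosgenin array and 84.9 on the control array, and Irf7, which drives type I interferon genes, was 1.59-fold higher. The receptor subunit Ifnar1 was 1.46-fold lower. Irf1, a direct activator of class I and immunoproteasome promoters, was on the lower side, with 225 on the diosgenin array and 251 on the control array. Ifng, the gene of interferon gamma itself, was under the floor on both arrays.

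Interferon gamma-induced genes were at a median of 0.36, with 7 higher and 2 lower of 9 above the filter. The chemokine Cxcl9 was 2.64-fold higher, with 105 on the diosgenin array and 39.9 on the control array. The GTPase Gbp2 was 2.43-fold higher with 62.8 on the diosgenin array and 25.8 on the control array, where the second signal is under the filter. Gbp7 was 1.61-fold higher by its brighter set and at a log2 ratio of 0.07 by the other. The class II genes above the filter were higher in 5 of 5 cases with a median of 0.42, led by H2-Eb1 at 188 on the diosgenin array and 70.0 on the control array, H2-Aa at 1.48-fold and Cd74 at 1.34-fold higher. The sets of H2-Aa above the filter ran from a log2 ratio of −0.0042 to one of 0.73, so that 1 was level, and those of H2-Ab1 from 0.25 to 1.18. Differences between these lists and the class I genes were not tested, and all rest on the same 2 arrays.

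**Figure D3:**
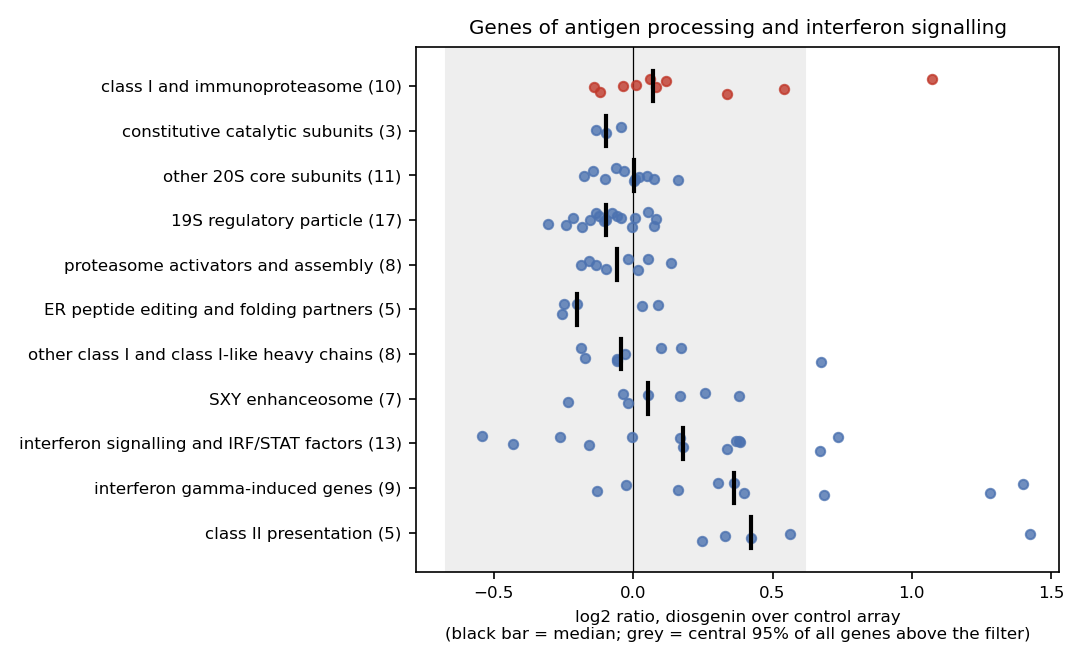
Each point is a gene above the signal filter, with its log2 ratio of the diosgenin over the control array, in rows by list; numbers in brackets count the genes, black bars are medians, and the grey band is the central 95% of all genes above the filter, from −0.67 to 0.62. Medians run from −0.20 for the endoplasmic reticulum partners to 0.42 for class II presentation, with the class I members at 0.07.

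Markers of cell types that carry class I went different ways. Kupffer cell markers, for the resident macrophages, were higher in 7 of 9 cases with a median of 0.19. Their summed signal was 2364 on the diosgenin array and 2119 on the control array. Clec4f was 1.29-fold higher, and the complement genes C1qa and C1qc were 1.18-fold higher each. Cd5l and Adgre1 were slightly lower, at log2 ratios of −0.02 and −0.06. Of these markers Clec4f alone was beyond the spread of 0.28 between probe sets of the same gene. All 5 of 5 endothelial markers were lower, at a median of −0.27 and led by Clec4g at 1.61-fold lower. Clec4g and Lyve1 alone were beyond that spread, and Kdr, Pecam1 and Stab2 were within it. Summed endothelial signals were 978 on the diosgenin array and 1360.2 on the control array. Most of that difference lay in Clec4g, with 464 on the diosgenin array and 745 on the control array. General leukocyte markers were higher in 3 of 5 cases above the filter with a median of 0.17, though their summed signal over all 6 was 965 on the diosgenin array and 1005 on the control array. Among them Cd53 was 1.48-fold higher and Coro1a 1.44-fold higher, and Lcp1 1.15-fold lower. Stellate cell markers were higher in 4 of 4 cases, with a median of 0.27, and hepatocyte markers in 2 of 5, with a median of −0.07.

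Lymphocyte and dendritic cell markers were too dim to follow. Of 7 T cell markers 1 passed the filter, Cd8a, at 31.1 on the diosgenin array and 31.2 on the control array, and 3 were under the floor on both arrays. Of 6 measured NK cell markers 1 passed, Prf1, at 1.22-fold lower, and of 3 B cell, 5 dendritic cell, 2 neutrophil and 3 cholangiocyte markers 0 passed. Summed signals of the B cell markers were 61.2 on the diosgenin array and 39.4 on the control array, those of the T cell markers 90.3 and 72.1, and those of the NK cell markers 86.6 and 87.6. Summed signals were lower on the diosgenin array for the dendritic cell markers, at 57.6 against 66.9 on the control array, the neutrophil markers, at 32.1 against 39.4, and the cholangiocyte markers, at 32.0 against 63.6. Most markers in these sums were under the filter, and the floor was not applied. The B cell difference lay mostly in Cd79a, with 27.7 on the diosgenin array and 9.86 on the control array, the second under the floor. The cholangiocyte difference lay in Krt19, with 13.2 and 25.6 in the same order, and Epcam, with 10.2 and 28.4, both under the filter. The part of these cells in the ratios of the class I genes was not tested.

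**Figure D4:**
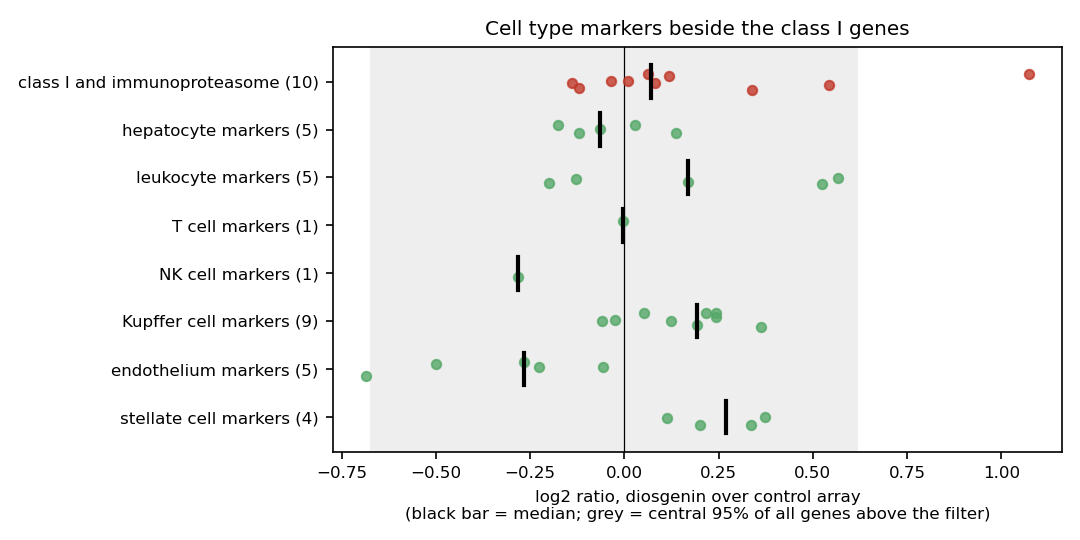
Each point is a gene above the signal filter with its log2 ratio of the diosgenin over the control array, in rows for the class I members and for each marker list with a gene above the filter; bars are medians and the grey band is the central 95% of all genes. Kupffer and stellate cell markers lie mostly to the right of 0, endothelial markers to the left, and hepatocyte markers around 0.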

How the data were processed

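The authors deposited linear intensities, with 45101 probe sets per array. GCOS, the Affymetrix operating software, is named without a version in the submitters' processing notes. How signals were summarised, scaled and called present is not given in the sources used here. Per the labels, 5 µg of RNA pooled from 3 mice was labelled for each array.

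Symbols came from the platform annotation. A single symbol was given for 34958, several for 932, and 9211 were unnamed here. By gene identifier 34754 of the single-symbol sets matched RefSeq, with 0 symbol differences. The log2 ratio of the diosgenin over the control signal was taken with Python 3.11.15 and pandas 2.3.3, after the floor, with no further scaling, and no p-value was computed, since the number of arrays limits the precision. The calculation was tested on simulated arrays, with known folds set only in genes well above the filter. Those genes were brighter than Nlrc5 and Tap1, so the simulation does not cover such dim signals. The members, the 10 comparison lists and the 11 marker lists were chosen with earlier results of these data known. Every member was named, with fixed partners and up to 3 genes per list by size of ratio. Alternatives were the floor, filter, gene value and scaling.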

Additional observations from a re-analysis of the deposited data

Results flagged for a closer look

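One probe set outside the gene values was higher on the diosgenin array by more than 1.5-fold. Its annotation lists both H2-Q5 and H2-K1, and its signals were 80.1 on the diosgenin array and 44.0 on the control array, a log2 ratio of 0.86. It is 1 of 3 sets that list a member beside other genes and were left out of the comparison of genes, and was picked out for its ratio. Of the others, a set for H2-K1 and H2-D1 was lower, with 1563 on the diosgenin array and 1758 on the control array, and the other, which lists H2-D1, was under the floor on both arrays. Among probe sets with several symbols above the filter, 2.98% were at least 1.5-fold higher. The 4 probe sets of H2-K1 alone lay between −0.12 and 0.30.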

How the results depend on the processing

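Using only probe sets that end in plain _at left 6 members, 5 higher and 1 lower, and moved the members' median log2 ratio to 0.385. It dropped Psmb8, Tap2, B2m and H2-K1, whose log2 ratios lay between −0.12 and 0.08. Of the members left, H2-D1 alone changed its value, to 0.43 by a dim set. The difference between immunoproteasome and standard catalytic subunits moved to 0.44, but without Psmb8 and Psmb5, which had no such set above the filter. A filter at the 75th percentile removed Nlrc5 and left 0 genes at least 1.5-fold higher. Otherwise, over 10 alternatives of floor, filter, gene value and scaling, the members' median stayed at or above 0.07 and that difference at or above 0.21. Not all of these alternatives could move them. With other floors or no filter both values were fixed, since both signals of each gene's brightest set lay above them. Centring shifted every gene by the same small amount. Nlrc5 lay between 1.07 and 1.09 and Psmb10 between 0.53 and 0.55 wherever they had a value. B2m and H2-K1 each changed sign under 1 of 9 alternatives, reaching 0.05 and 0.16. For a single gene, movement was judged against the spread between probe sets of the same gene, since there are no replicate arrays. For medians and their difference that spread was scaled down by the number of genes or probe sets, as if these were independent. Counts were judged by a ratio of 1.5. No array could be left out, and no paired analysis was possible because each diet had 1 array. Dim signals limit Nlrc5 and Tap1, and binding to several transcripts limits H2-K1 and H2-D1.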

Other observations

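Psmd6, a regulatory particle subunit picked out after its values were seen, had probe sets that disagreed widely. One had 1077 on the diosgenin array and 111 on the control array, 9.70-fold higher, and the other 971 and 1044 in the same order, 1.08-fold lower. The gene is represented above by the second, which is brighter.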
